A study of Mus musculus with 6 samples.

Results

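Aerocytes, the Car4-high capillary endothelial cells of the lung, were described in 4 single-cell RNA libraries of mouse lung at postnatal day 21 (P21). A cell was taken as an aerocyte when at least 2 of the 4 endothelial genes Pecam1, Cldn5, Egfl7 and Tie1 and at least 2 of the 5 aerocyte genes Car4, Ednrb, Fibin, Apln and Tbx2 were detected. It was also allowed at most 1 unique molecular identifier (UMI, 1 counted molecule) in total over the arterial, venous and lymphatic genes Gja5, Bmx, Slc6a2 and Prox1, and at most 1 over the fibroblast, leukocyte and alveolar genes Col1a2, Ptprc, Etv5 and Rtkn2. This rule gave 5470 aerocytes among 21244 lung endothelial cells, out of 70426 lung cells and 78318 cells in all 6 libraries of the series. The rule reads measured counts, so the levels of its own genes describe the choice and were not tested.

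The study deleted Bdnf or Hgf in mural cells and asked how the lung responded. The 4 genotypes were Bdnf lox/lox and Bdnf iPCKO, and Hgf lox/lox and Hgf iPCKO, each with 1 library of cells pooled in equal numbers from 2 littermates. Every pup received 50 µg tamoxifen on P1 to P3; the lox/lox controls carried the floxed alleles without the transgene, and in the iPCKO mutants a Pdgfrb(BAC)-CreERT2 transgene drove the deletion in PDGFRβ-positive cells, which include pericytes and vascular smooth muscle. Leukocytes (CD45+) and red cells (Ter119+) had been depleted before capture, and the sex of the pups is not stated in the labels. Values of the libraries are given throughout in the order Bdnf lox/lox, Bdnf iPCKO, Hgf lox/lox and Hgf iPCKO. With 1 library per genotype there was no replicate, so no test between genotypes was possible. Controls were described as littermates of the mutants, and genotype, individual pups and library preparation cannot be told apart; intervals cover counting error only.

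Alveolar capillaries are built from a pair of endothelial cell types. Aerocytes are large, thin cells that lie against the alveolar epithelium where gas is exchanged, depend on VEGF from the epithelium, and express the apelin ligand. General capillary cells (gCap) express the apelin receptor and serve as the progenitors that maintain the capillary bed. Here a gCap cell was an endothelial cell under the same limits with at least 2 of Gpihbp1, Plvap, Aplnr, Kit and Glp1r detected and fewer than 2 aerocyte genes; there were 10182.

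The libraries held 770, 1285, 1291 and 2124 aerocytes with 4333416, 5544657, 4455366 and 6174885 UMIs in total. Median depth was 4871.5, 3561, 3146 and 2350 UMIs per aerocyte, so in both pairs the mutant cells were the shallower ones. The median mitochondrial share was between 5.03% and 5.72%. Sftpc, the surfactant protein C gene of the alveolar type 2 (AT2) cell, stood at 2007, 4488, 2023 and 1747 CPM (UMIs per 1000000 UMIs of the cells concerned) in aerocytes, against 11303, 11047, 13404 and 5964 CPM in barcodes of 10 to 100 UMIs, which hold free RNA. If all Sftpc UMIs of aerocytes came from free RNA, free RNA would make up 17.8%, 40.6%, 15.1% and 29.3% of aerocyte UMIs. Doublets were kept, and Scrublet marked 55, 85, 17 and 51 aerocytes as doublets. All 4 libraries held Y-linked transcripts, with Ddx3y between 165 and 197 CPM and Xist at or below 0.224 CPM in aerocytes. Pairs of libraries shared 243 to 432 cell barcodes and at most 8 aerocyte barcodes. The product of the cell numbers over the 912673 possible barcodes was 244 for the pair that shared 243 and 436 for the pair that shared 432. It was 367 for Bdnf iPCKO and Hgf lox/lox, which shared 404, and 412 for Bdnf iPCKO and Hgf iPCKO, which shared 390. No such product was taken for aerocyte barcodes.

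The targeted genes were low in aerocytes. Bdnf, the neurotrophin, stood at 1.15, 3.43, 2.47 and 4.70 CPM and Hgf, the hepatocyte growth factor, at 10.2, 6.13, 9.65 and 3.89 CPM. The non-endothelial cells held more Bdnf, at 34.7, 32.7, 34.8 and 30.0 CPM, but less Hgf, at 4.51, 3.64, 4.99 and 2.01 CPM. The mural cells in which the deletion takes place were not isolated here, so these values do not check the labels. Within gCap cells Hgf stood at 31.4, 18.5, 40.5 and 6.48 CPM.

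Aerocytes were also described by genes that the rule did not use. Of 10 further aerocyte genes, 9 reached 50 UMIs in aerocytes and gCap cells together in every library, and 8 of these were at least 2-fold higher in aerocytes than in gCap cells in all 4. Over all 10816 genes that reached 50 UMIs, 1.62% were. Sirpa, the CD47 receptor, held 99.7, 73.0, 131 and 58.6 CPM in aerocytes and 2.34, 3.91, 1.89 and 2.41 CPM in gCap cells. Both groups were chosen by the counts of the same libraries, and the list was chosen with earlier results of these data known. A gCap cell had to have fewer than 2 aerocyte genes, so differences in genes that go with them can follow from the selection. This comparison and those with gCap cells below are descriptions without a test.

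The rule has a threshold at 2 aerocyte genes. Cells with exactly 2 numbered 162, 289, 180 and 499, between 13.9% and 23.5% of the aerocytes, and 664, 796, 692 and 800 endothelial cells had only 1 and stayed outside. Kdr, the VEGF receptor VEGFR2, stood at 494, 711, 669 and 666 CPM in cells with 1 aerocyte gene, at 807, 1338, 1230.0 and 1780.0 CPM in cells with 2, and at 2128, 3205, 2902 and 2754 CPM in cells with 3. Plvap, which forms the diaphragms of capillary caveolae and marks gCap cells, went the other way, from 1302, 884, 1327 and 893 CPM to 1032, 452, 978 and 562 CPM and then to 706, 211, 404 and 324 CPM. For both genes, cells with 2 aerocyte genes lay between cells with 1 and cells with 3 in every library. At least 3 of the 5 gCap markers were detected in 33.1%, 25.2%, 27.4% and 27.4% of aerocytes, and fewer than 2 in 60.6%, 65.6%, 66.8% and 61.4%. A narrower set, with at least 3 of the 4 aerocyte genes other than Apln, held 517, 826, 992 and 1585 cells and is called the core set.

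**Figure D1:**
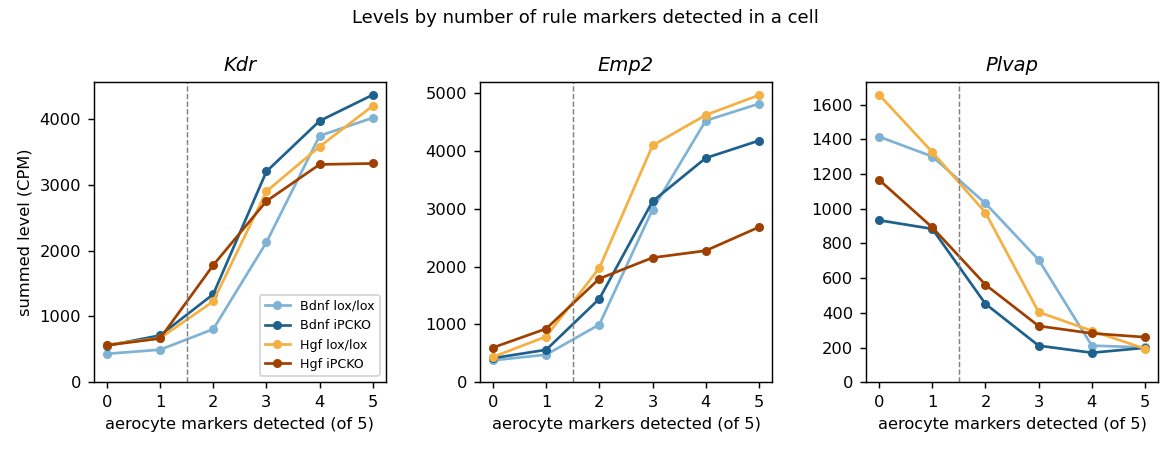
Summed level (CPM, vertical axes) of Kdr, Emp2 and Plvap in endothelial cells grouped by how many of the 5 aerocyte genes were detected (horizontal axes), with 1 line per library; the dashed line marks the threshold. In cells with 3 aerocyte genes Kdr stood between 2128 and 3205 CPM and Plvap between 211 and 706 CPM, and cells with 2 lay between these and the cells with 1.

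The 5 genes of the rule differed in how much their levels varied across libraries. Car4, a membrane-anchored carbonic anhydrase (chr11:84848020-84856879 in GRCm39), stood at 2172, 1993, 3463 and 2066 CPM in aerocytes and 68.9, 41.8, 129.6 and 73.7 CPM in gCap cells. Ednrb, the endothelin receptor B (chr14:104052053-104081900), stood at 1749.9, 1949, 2246 and 2306 CPM against 20.9, 41.5, 15.1 and 38.6 CPM. Tbx2, a T-box transcription factor (chr11:85723377-85734115), stood at 302, 296, 448 and 338 CPM against 9.58, 13.9, 9.62 and 17.0 CPM. Fibin, a secreted protein gene (chr2:110191262-110193528), stood at 162, 94.5, 347 and 502 CPM against 1.05, 0.690, 1.51 and 3.47 CPM, lower in both Bdnf libraries than in both Hgf libraries.

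Apln, which encodes the apelin ligand (chrX:47114019-47123775), was the rule gene with the largest difference between genotypes in the Hgf pair. Its level was 713, 438, 701 and 58.5 CPM in aerocytes, with the Hgf iPCKO library far below the other 3. The log2 ratio of mutant over control was -3.58 (-3.74 to -3.43) in the Hgf pair and -0.70 (-0.78 to -0.63) in the Bdnf pair; the bracketed values given with log2 ratios are 95% counting intervals. After every cell was thinned to the same number of UMIs (1500 in the Bdnf libraries, 700 in the Hgf libraries), an Apln UMI was found in 54.8, 42.1, 37.0 and 4.52% of aerocytes and in 2.71, 2.40, 0.552 and 0.162% of gCap cells. The rule reads Apln, so the core set, chosen without it, was compared as well. There Apln stood at 918, 543, 765 and 65.7 CPM, and 91.5%, 67.6%, 79.3% and 14.8% of core cells held an Apln UMI, unthinned. The log2 ratios in the core set were -0.76 and -3.54 (-3.72 to -3.37). Apln was also lower outside aerocytes in the Hgf iPCKO library, with 29.6, 23.7, 12.1 and 2.56 CPM in gCap cells, 29.2, 18.8, 23.1 and 5.66 CPM in the other endothelial cells, and 19.2, 19.5, 34.1 and 4.88 CPM in free RNA.

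**Figure D2:**
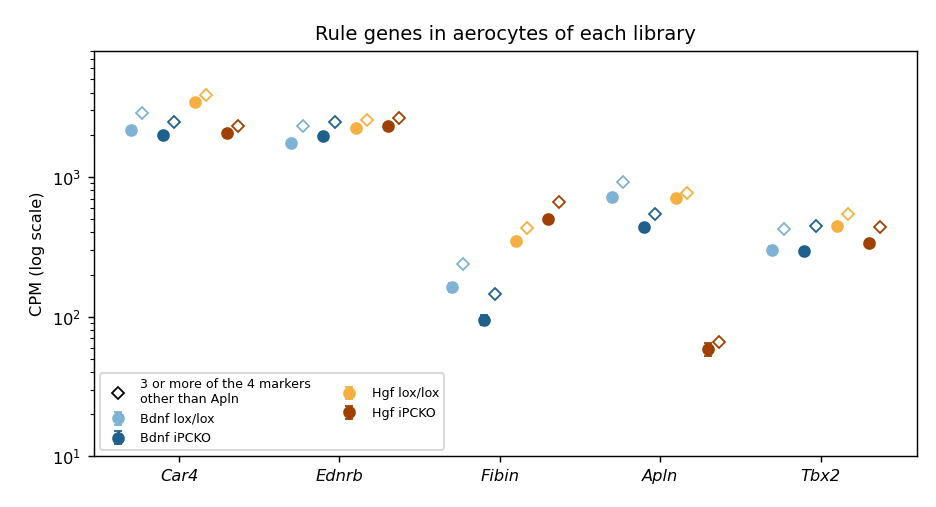
Level (CPM, log scale) of the 5 rule genes in the aerocytes of each library, filled circles with 95% Poisson intervals, and in the core set chosen without Apln, open diamonds. Apln in the Hgf iPCKO library stands at 58.5 CPM, below the 438 to 713 CPM of the other 3, and the core set gives the same order.

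Aerocytes made up a larger share of endothelial cells in both mutant libraries. The shares were 19.0% (95% Clopper-Pearson interval 17.8 to 20.3), 24.1% (22.98 to 25.3), 25.9% (24.7 to 27.2) and 30.8% (29.7 to 31.9). The difference between mutant and control was 5.08 percentage points (3.39 to 6.76) in the Bdnf pair and 4.91 (3.26 to 6.55) in the Hgf pair. Per gCap cell there were 0.371, 0.520, 0.507 and 0.686 aerocytes. The size of the difference depended on how strictly an aerocyte was defined. In the Hgf pair it was 1.28 points with at least 3 of the 5 aerocyte genes, 0.56 without Ednrb in the rule, 2.08 with every cell thinned and 3.09 in the core set. In the Bdnf pair it was between 2.72 and 5.77 points under every alternative run. Both differences were above 0 under every alternative, and no library stands beside another of its genotype, so the spread between animals is unknown.

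**Figure D3:**
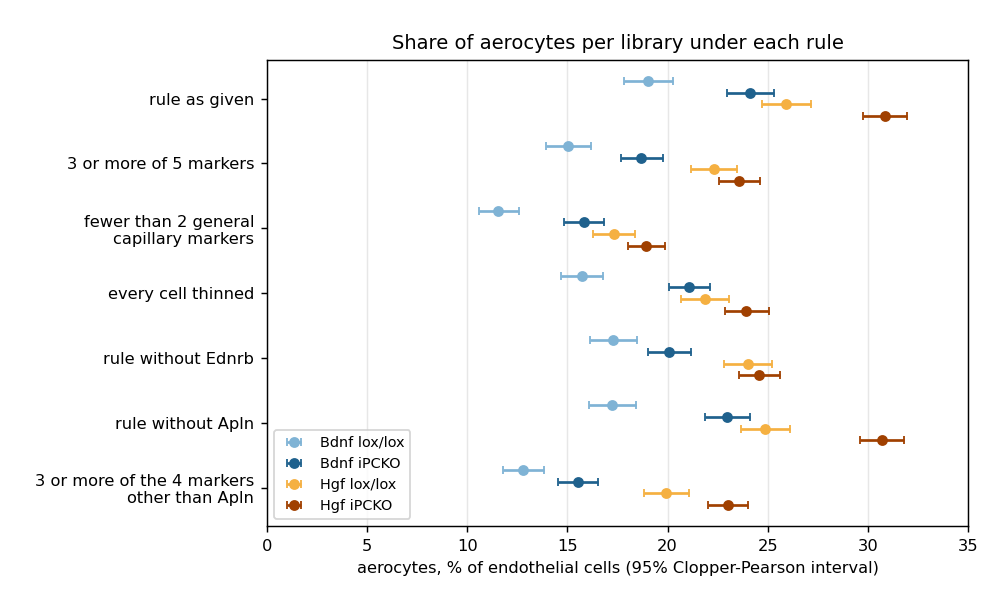
Aerocytes as a percentage of endothelial cells in each library under the rule as given and 6 stricter or altered rules, with 95% Clopper-Pearson intervals. Under the rule as given the mutant libraries stand at 24.1% and 30.8% and their controls at 19.0% and 25.9%; in the Hgf pair the intervals of control and mutant overlap with at least 3 markers, with fewer than 2 gCap markers, with thinned cells and without Ednrb.

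Set against gCap cells of the same library, 175 genes (1.62% of 10816) were at least 2-fold higher in aerocytes in all 4 libraries and 131 (1.21%) were at least 2-fold lower, while the median log2 ratio over all of these genes was -0.05. Genes are described here by their median log2 ratio over the 4 libraries. Chst1 and Chst2 encode sulfotransferases that add sulfate to carbohydrate chains, and their ratios were 5.75 and 4.80. Chst1 stood at 105, 86.9, 189 and 150.1 CPM in aerocytes and 1.52, 1.95, 1.70 and 4.07 CPM in gCap cells. Begain, which encodes a scaffold protein known from synapses, had a ratio of 5.85. Rbfox3, the neuronal splicing factor NeuN, had 4.64, and Egflam, an extracellular matrix protein, had 4.57. Fndc1 had a median of 4.95 but varied between libraries, at 5.73, 4.19, 5.70 and 2.72. Igfbp7, a secreted insulin-like growth factor binding protein, had 3.27, and Hspb1, a small heat shock protein, had 2.43.

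Among the other aerocyte genes of the list, Emp2, a tetraspan membrane protein, stood at 3639, 3114, 4337 and 2142 CPM in aerocytes and 409, 459, 554 and 714 CPM in gCap cells. Its ratio was 2.87, and 3.15, 2.76, 2.97 and 1.59 by library, lowest in the Hgf iPCKO library. Prx, Itga3 and Kitl had ratios of 2.03, 1.68 and 1.95. Cyp4b1, a cytochrome P450, was the one not 2-fold higher in every library, with 1.17 overall and 0.67 in the Hgf iPCKO library. The median of the list was 2.03. Rprml held only 25 UMIs in aerocytes and 1 in gCap cells of the Hgf iPCKO library and was left out for that reason.

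Of the 21 listed endothelial transcription factors with enough UMIs, 5 were at least 2-fold higher in aerocytes in all 4 libraries, against 1.62% of all genes, and 1 was lower, against 1.21%. One of the 5 is a rule gene, whose difference follows from the selection. Tbx2 (4.69, the rule gene), its relative Tbx3 (1.65), the repressor Prdm1 (2.95), the homeobox factor Meox1 (2.48) and Ebf1 (1.46) were higher, and Gata6 (-1.43) was lower. Prdm1 stood at 220.4, 181, 133 and 85.8 CPM in aerocytes and 32.1, 23.7, 17.0 and 10.4 CPM in gCap cells, and the lowest aerocyte library was above the highest gCap library. Meox1 stood at 172, 138, 140.1 and 36.0 CPM against 36.6, 26.8, 15.3 and 5.88 CPM, and its aerocyte level in the Hgf iPCKO library fell within the gCap range of the Bdnf libraries.

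Several ligand and receptor genes differed between the capillary types, but Apln and Ednrb chose the aerocytes and Aplnr and Kit chose the gCap cells, so their differences follow from the selection. The apelin receptor Aplnr stood at 92.3, 48.2, 71.6 and 49.6 CPM in aerocytes and 218, 146, 259.9 and 152 CPM in gCap cells. Edn1, the ligand of Ednrb, was lower in aerocytes, at 89.3, 111, 87.5 and 135 CPM against 340.4, 404, 311 and 443 CPM. Kitl, the ligand of the Kit receptor, stood at 2183, 1917, 1999 and 1035 CPM in aerocytes and 536, 509.6, 504 and 335 CPM in gCap cells, and Kit at 196, 209, 122 and 168 CPM against 643, 669, 546 and 537 CPM. Of the VEGF family, Kdr was 2.37 and the coreceptor Nrp1 1.42 on the log2 scale, Vegfa was -1.34, and Flt1, the VEGFR1 gene, was -0.17. Kdr stood at 2963, 3166, 3401 and 2743 CPM in aerocytes and 481, 633, 634 and 606 CPM in gCap cells. Of the genes that chose neither group, Kitl, Kdr and Nrp1 were at least 2-fold higher and Edn1 and Vegfa at least 2-fold lower in aerocytes in all 4 libraries.

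Of the 12 further gCap genes, 7 were at least 2-fold lower in aerocytes in all 4 libraries, against 1.21% of all genes, with a list median of -1.39. The chemokine Cxcl12 stood at 114, 104, 101 and 66.1 CPM in aerocytes and 502, 316, 514 and 313 CPM in gCap cells. Ptprb, the endothelial phosphatase VE-PTP, and the angiopoietin receptor Tek had ratios of -1.69 and -1.57, and Lpl, lipoprotein lipase, had -1.81. Scn7a, a sodium channel gene listed with gCap genes, was higher in aerocytes in the median, at 1.09. Of 10 Notch pathway genes 3 were lower, against the same 1.21%: the target Hey1 (-1.65) and the ligands Dll1 (-1.62) and Jag1 (-1.13). Of 11 genes of vascular tone 4 were lower, against 1.21%: Npr3 (-1.77) and Npr1 (-1.14), receptors for natriuretic peptides, Nos3 (-1.73), the endothelial nitric oxide synthase, and the phosphodiesterase Pde3a (-1.17). Vwf, the von Willebrand factor, stood at 36.7, 52.5, 40.4 and 78.1 CPM against 143, 242, 143 and 254 CPM.

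The largest negative ratio was that of Ccl21a, a chemokine of lymphatic vessels and lymphoid tissue (-3.50), followed by Fgl2 (-2.42), Ptprr (-2.27), Cxcl12 (-2.19), Stc1 (-2.14), Slc45a4 (-2.13) and Esm1 (-2.10). Ccl21a has near-identical copies, so its share of reads is uncertain, and its level of 7.75, 2.67, 2.69 and 5.79 CPM in aerocytes was below its level in free RNA, 53.0, 22.0, 105 and 25.8 CPM. In the other direction Hopx, listed with markers of the alveolar type 1 (AT1) epithelial cell, stood at 1012, 1787, 2101 and 3301 CPM in aerocytes and 300.0, 557, 780.4 and 1429 CPM in gCap cells. The 8 AT1 markers together summed to 1309.7, 2119, 2655 and 3904 CPM in aerocytes and 577, 933, 1264 and 2115 CPM in gCap cells, and all 8 had a UMI in every library; Hopx was the only one at least 2-fold higher in all 4, and the part of AT1 RNA in its level was not tested.

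**Figure D4:**
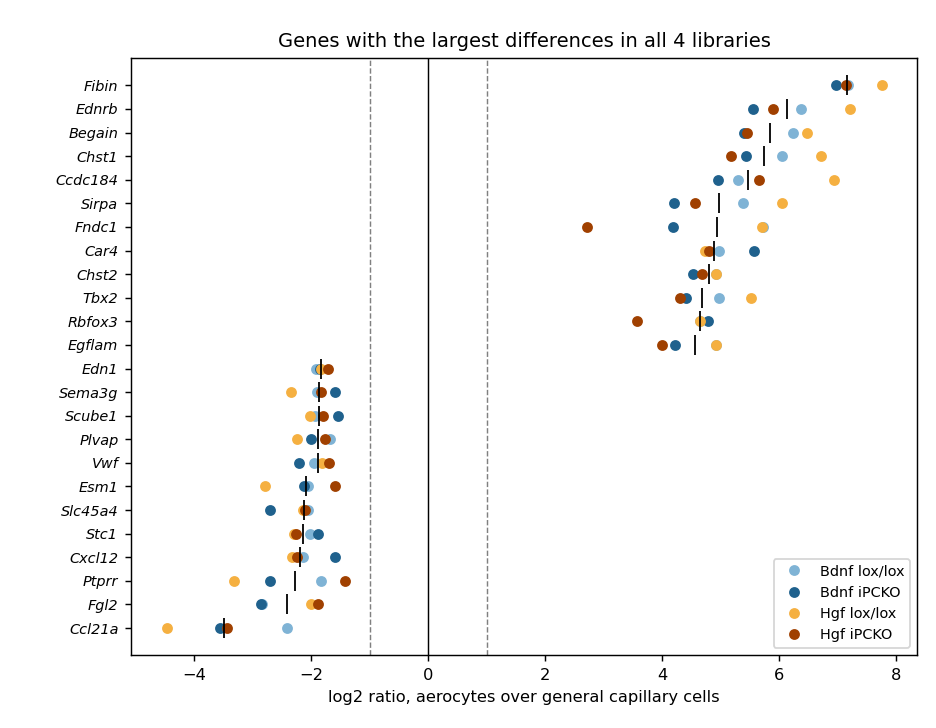
Log2 ratio of aerocytes over gCap cells for the 12 genes each way with the largest median, with 1 point per library, a tick at the median and dashed lines at 2-fold. Every point lies beyond 2-fold; Fndc1 in the Hgf iPCKO library (2.72) stands apart from its other libraries.

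Between genotypes, 222 of 11278 genes (1.97%) were at least 2-fold higher and 97 (0.86%) at least 2-fold lower in Bdnf iPCKO than in Bdnf lox/lox aerocytes, with a median log2 ratio of 0.01. In the Hgf pair 614 of 11400 (5.39%) were higher and 533 (4.68%) lower, with a median of -0.02. Genes entered with at least 50 UMIs in both libraries of the pair together. The pairs share no library. Of 10758 genes entered in both, 60 (0.558%) were higher and 41 (0.381%) lower in both mutants. Among these 10758, the 60 were 35.7% of the 168 higher in the Bdnf pair and 13.1% of the 459 higher in the Hgf pair. The 41 were 54.7% of the 75 lower in the Bdnf pair and 8.25% of the 497 lower in the Hgf pair.

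Of 12 clock genes with enough UMIs, 6 were at least 2-fold higher in Bdnf iPCKO and 10 in Hgf iPCKO, against 1.97% and 5.39% of all genes. In each pair 1 was lower, against 0.86% and 4.68% of all genes. The circadian clock is a feedback loop in which Arntl (Bmal1), Clock and Npas2 drive the Per, Cry and Nr1d repressors and the output factors Dbp, Tef and Hlf, and it is set by the time of day and by glucocorticoids. The list held 14 clock genes. Nr1d1, the repressor Rev-erb alpha, stood at 17.1, 39.5, 7.18 and 229 CPM, lowest in Hgf lox/lox and highest in Hgf iPCKO, with log2 ratios of 1.20 (0.82 to 1.61) and 4.97 (4.49 to 5.55). Tef stood at 16.2, 35.5, 12.3 and 130.0 CPM and Nr1d2 at 18.5, 60.1, 13.1 and 97.0 CPM. The ratios of Hlf were 2.22 and 4.22, those of Per3 1.39 and 2.42, and those of Cry1 0.75 and 1.68. Of the 3 activators, Arntl was 2-fold lower in the Hgf pair and Npas2 in the Bdnf pair, and Clock had 0.48 and 0.55. Arntl stood at 28.5, 22.2, 29.2 and 11.4 CPM, with -0.36 (-0.74 to 0.00) and -1.35 (-1.80 to -0.93), and Npas2 at 13.8, 5.59, 8.08 and 1.94 CPM, where the Bdnf ratio was -1.30 and the Hgf pair held fewer than 50 UMIs. The list median was 0.93 and 2.36 in aerocytes. In the Bdnf pair it was 0.49 with every cell thinned and 0.72 in the core set. It reversed to -7.12, with Nr1d2 at -4.65, when free RNA taken from barcodes of 200 to 500 UMIs was subtracted. That subtraction took all Sftpc UMIs as free RNA and set values below 0 to 0, so a gene could fall to the 0.5 UMI offset. The list median was 0.96 and 2.39 for the same genes in gCap cells and 0.44 and 1.94 in free RNA, so the clock genes were higher outside aerocytes too. The hour at which each lung was taken is not stated in the labels.

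Genes induced by glucocorticoids and fasting were higher in Hgf iPCKO, where 7 of 11 passed 2-fold, against 5.39% of all genes. In the Bdnf pair 2 of 11 did, against 1.97%. All 11 had a ratio above 0 in both pairs, with medians of 0.53 and 1.14. Fkbp5, a cochaperone of the glucocorticoid receptor, stood at 20.3, 39.7, 4.38 and 130.4 CPM, with 0.96 (0.60 to 1.34) and 4.86 (4.22 to 5.58). The metallothioneins Mt1 and Mt2 stood at 29.1, 66.6, 20.2 and 182 CPM and 31.2, 72.7, 7.18 and 128 CPM, and they were the 2 of the 11 genes past 2-fold in the Bdnf pair. In the core set their Bdnf ratios were 0.46 and 0.02, and Fkbp5 passed 2-fold there with 1.52. Of the Mt1 and Mt2 UMIs, 27.1% and 31.8% in Bdnf iPCKO, and 42.1% and 54.1% in Bdnf lox/lox, came from 1 cell each. Klf9 and Zbtb16 had ratios of 1.01 and 1.14 in the Hgf pair, and 0.20 and 0.04 in the Bdnf pair. The medians in gCap cells were 0.66 and 1.23, and in free RNA 0.44 and 1.15, so these genes were higher outside aerocytes too.

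Of 15 interferon-responsive genes with enough UMIs, 5 were at least 2-fold lower in Bdnf iPCKO and 6 in Hgf iPCKO, against 0.86% and 4.68% of all genes. Interferons signal through cell surface receptors to switch on antiviral genes and the class I antigen presentation machinery. The list held 17 genes. None of the 15 was 2-fold higher, and their medians were -0.82 and -0.85. Isg15, a ubiquitin-like modifier, stood at 9.69, 3.43, 21.5 and 4.86 CPM, with -1.48 (-2.36 to -0.69) and -2.13 (-2.79 to -1.54), and both mutants lay below both controls. Ifit1, which binds viral RNA, stood at 23.8, 7.39, 32.0 and 10.9 CPM. The guanylate-binding proteins Gbp3 and Gbp4 had ratios of -1.49 and -1.42 in the Bdnf pair and -1.45 and -2.68 in the Hgf pair; members of this family share sequence, so single values are uncertain. Ly6e and Irf1, with -0.75 and -0.21 in the Bdnf pair and -0.43 and -0.83 in the Hgf pair, did not reach 2-fold. The 10 genes named as lower in both pairs were Ms4a8a, Ifi44, Phf11b, Ifit1, Tgtp1, Isg15, Uba7, Gbp3, Gbp4 and Rtp4, of which 3 are on the interferon list. Ms4a8a stood at 9.69, 1.44, 23.8 and 0.810 CPM and Ifi44 at 30.0, 6.13, 34.1 and 3.56 CPM. The Bdnf median was -0.45 with fewer than 2 gCap markers allowed, and in the core set 1 of the 12 genes that reached 50 UMIs was 2-fold lower in the Bdnf pair, with a median of -0.58. There Ifit1 had -1.12, while Isg15 (-1.23) and Ifit3 (-1.26) fell under the minimum of UMIs. Medians of the interferon list in gCap cells were -1.09 and -1.40, and in free RNA -0.31 and -0.92.

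Of 13 antigen presentation genes, 8 were at least 2-fold lower in Hgf iPCKO, against 4.68% of all genes, and all 13 had a ratio below 0. In Bdnf iPCKO 1 was at least 2-fold lower, against 0.86%, and 3 had a ratio above 0. The medians were -0.60 in the Bdnf pair and -1.06 in the Hgf pair, and -0.56 and -1.03 in the core set. For the same genes they were -0.67 and -1.40 in gCap cells and -0.50 and -0.72 in free RNA, so these genes were lower outside aerocytes too. B2m, the light chain of class I molecules, stood at 2925, 1605, 2499 and 859 CPM, with -0.87 (-0.91 to -0.83) and -1.54 (-1.59 to -1.49). The heavy chain genes H2-K1 and H2-D1, which share much of their sequence, stood at 1172, 645, 1184 and 552 CPM and 3912, 2319, 2523 and 1361 CPM. Tap1, which carries peptides to class I molecules, had ratios of -0.59 and -1.06. The class II genes H2-Eb1, H2-Aa and Cd74, best known from antigen-presenting leukocytes, had Bdnf ratios of 0.46, 0.26 and 0.64, and 1.03, 0.78 and 0.63 in the core set. These were the 3 above 0. H2-Ab1, also class II, had a Bdnf ratio below 0, and 0.08 (-0.43 to 0.60) in the core set. Of the 9 leukocyte markers, 6 had a UMI in the Bdnf lox/lox aerocytes and 5 in the Bdnf iPCKO aerocytes, and the part of leukocyte RNA in these values was not tested.

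The upstream sequences of 5 of these genes are shown because they hold the motifs by which the interferon and clock factors are known to bind. They are stretches of the RefSeq promoters (250 bases before to 50 after a gene's start, GRCm38.p6, unlike the GRCm39 of the counts), 5′ to 3′ on the gene's strand, with the motif in capitals on whichever strand it lies; the window of each is given with its strand. The core of the interferon-stimulated response element, GAAA, then any 2 bases, then GAAA, is capitalised in Isg15 (chr4:156200842-156200941, minus strand), Ifit1 (chr19:34640740-34640839, plus strand) and Gbp3 (chr3:142559954-142560053, plus strand), where overlapping matches run together. CACGTG, the E-box, is capitalised in Tef (chr15:81802499-81802598, plus strand) and Cry1 (chr10:85185062-85185161, minus strand).
Isg15: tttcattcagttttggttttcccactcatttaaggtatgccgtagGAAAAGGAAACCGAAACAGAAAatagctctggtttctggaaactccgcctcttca
Ifit1: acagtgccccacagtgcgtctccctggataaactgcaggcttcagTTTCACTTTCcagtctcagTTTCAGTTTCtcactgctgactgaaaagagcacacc
Gbp3: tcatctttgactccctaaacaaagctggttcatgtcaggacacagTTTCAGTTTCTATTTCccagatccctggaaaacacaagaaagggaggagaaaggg
Tef: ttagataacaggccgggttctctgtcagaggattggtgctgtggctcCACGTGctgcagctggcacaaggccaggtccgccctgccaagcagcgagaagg
Cry1: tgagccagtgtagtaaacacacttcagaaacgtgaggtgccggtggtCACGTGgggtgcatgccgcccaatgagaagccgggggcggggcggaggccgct
On either strand this response element was found in 9 of the 12 interferon genes with a promoter in the table and in 5 of the 8 genes named as lower in both pairs that have one, against 3.99% of all 27025 genes. CACGTG was found in 4 of 12 clock genes, against 8.09% of all genes. The D-box TTATGTAA was in 1 of 12 clock genes against 1.11%, and the glucocorticoid response element, GAACA, any 3 bases and TGTTC, in 1 of 11 genes of the glucocorticoid list against 0.0555%. Ifit1 and Isg15 count in both gene sets of the response element. The lists name genes by known function, and the genes lower in both pairs were picked by their ratios here, so no count is a test. These 4 motifs were kept from 11 that were looked at, and a match is a description of the letters in this window.

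**Figure D5:**
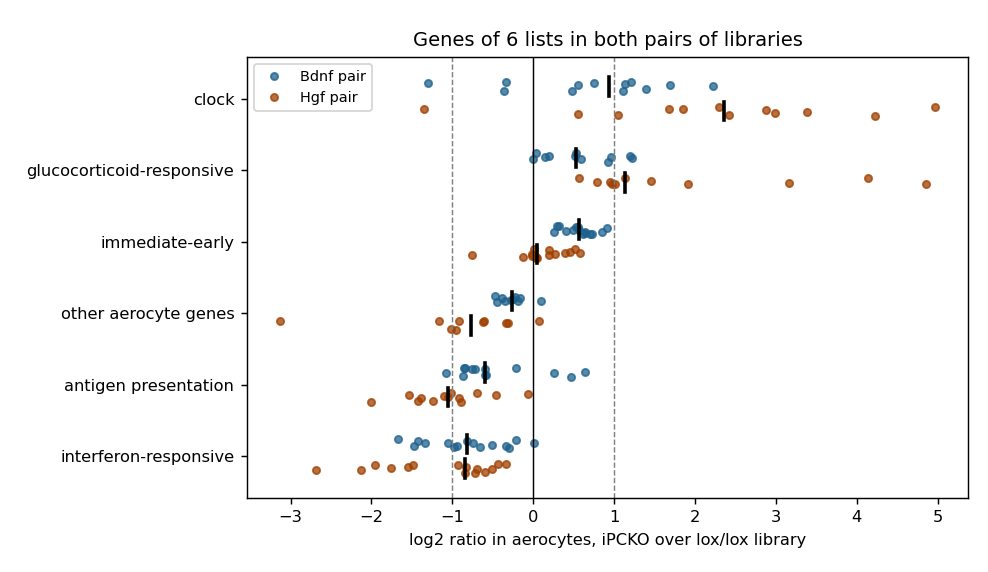
Log2 ratio of mutant over control aerocytes for the genes of 6 lists, with 1 point per gene, a bar at the list median and dashed lines at 2-fold, for the Bdnf pair (blue) and the Hgf pair (orange). The clock medians stand at 0.93 and 2.36 and the interferon medians at -0.82 and -0.85.

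Immediate-early genes, which cells switch on within minutes of a stimulus and during dissociation, did not reach 2-fold in Bdnf iPCKO. All 15 had a ratio above 0, with a median of 0.57, while in the core set 2 of them, Fos (1.07) and Fosb (1.08), passed 2-fold, and in the Hgf pair the median was 0.05. Fos stood at 866, 1565, 1263 and 1289 CPM and Fosb at 382, 722, 514 and 528 CPM. The same genes in gCap cells had medians of 0.68 and 0.02. Heat shock genes had medians of -0.38 and 0.04. The part of cell handling in these values was not tested.

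Of the 10 further aerocyte genes, 3 were at least 2-fold lower in Hgf iPCKO and none in Bdnf iPCKO, against 4.68% and 0.86% of all genes. Their medians were -0.77 and -0.26. The Bdnf median reversed to 0.0107 and 0.10 after free RNA of barcodes of 10 to 100 and of 200 to 500 UMIs was subtracted. The 3 were Rprml, at 56.5, 40.6, 36.1 and 4.05 CPM, Sirpa with -1.16 (-1.36 to -0.97), and Emp2 with -1.02 (-1.05 to -0.99). Kitl and Nrp1 had -0.95 and -0.91, Kdr had -0.31 and Prx had 0.07. The same genes in gCap cells had a median of -0.23, and in the core set of aerocytes the median was -0.77. Of other genes higher in aerocytes than in gCap cells, Meox1 stood at 140.1 and 36.0 CPM in Hgf lox/lox and Hgf iPCKO, with -1.96 (-2.19 to -1.74), and Fndc1 stood at 133 and 33.2 CPM. Sema7a, a semaphorin that was 2.16 higher on the log2 scale in aerocytes than in gCap cells, went against them, at 681, 843, 589 and 1491 CPM with 1.34 (1.28 to 1.40). Hopx, Lamc1 and Igfbp7, all higher in aerocytes, had 0.65, 0.42 and -0.02 in the Hgf pair.

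Several genes with large ratios in the Hgf pair were detected in many cells. Doc2b, which binds calcium during vesicle release, had no UMI in Hgf lox/lox aerocytes and 500 UMIs in 394 Hgf iPCKO aerocytes, at least 120.3-fold higher against a floor of 3 UMIs per library. In gCap cells it stood at 0.701, 2.18, 0.817 and 86.1 CPM. Lpl stood at 123, 295, 85.3 and 1018 CPM, with 1.27 (1.12 to 1.41) and 3.57 (3.43 to 3.73), and in gCap cells the ratios were 0.80 and 2.95. Ptgs1, cyclooxygenase 1, stood at 36.5, 64.0, 24.7 and 357 CPM, with 0.81 (0.54 to 1.09) and 3.85 (3.58 to 4.14). Slc6a6, the taurine transporter, stood at 54.0, 89.8, 47.6 and 354 CPM, with 2.89 (2.69 to 3.10) in aerocytes of the Hgf pair and 0.23 in gCap cells. Uchl1, a deubiquitinating enzyme best known from neurons, stood at 4.38, 30.5, 21.5 and 146 CPM, with 2.76 (2.11 to 3.56) and 2.75 (2.45 to 3.08); it was detected in 18, 123, 83 and 553 aerocytes. Bnip3, a mitophagy receptor, and the laminin chain Lamc3 were also higher in both mutants, with 1.52 and 2.29, and 1.78 and 3.06.

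Genes lower in the Hgf iPCKO aerocytes included Col15a1, a basement membrane collagen, at 34.8, 24.3, 24.9 and 0.648 CPM with -5.10 (-7.17 to -3.87), and Il1a, interleukin 1 alpha, at 64.6, 35.3, 23.1 and 1.30 CPM with -4.08 (-5.41 to -3.13). Col15a1 was -4.39 in gCap cells as well. Xpnpep2 stood at 23.5, 12.8, 48.7 and 4.05 CPM and Cdkn2a, a cell cycle inhibitor, at 8.54, 1.08, 12.1 and 0.216 CPM with -5.36 (-11.56 to -3.69). The cyclin Ccnd1 stood at 289, 184, 318 and 93.1 CPM, and Thbd, thrombomodulin, and Icam2 had -1.06 and -1.25. The receptors for both deleted factors were low in aerocytes: Ntrk2, the BDNF receptor, stood at 19.6, 25.2, 17.3 and 7.94 CPM against 45.3, 44.5, 60.7 and 14.2 CPM in gCap cells, and Met, the HGF receptor, at 18.2, 15.1, 12.3 and 4.05 CPM. Their ratios in the Hgf pair were -1.12 (-1.67 to -0.59) and -1.59 (-2.35 to -0.90), and in the Bdnf pair 0.36 (-0.03 to 0.77) and -0.27 (-0.73 to 0.19). In the core set the Hgf ratio of Ntrk2 was -0.83, short of 2-fold. Over the 4 genes of the receptor and ligand list with enough UMIs, the Hgf median was -1.21 in aerocytes, -1.38 in gCap cells and -1.33 in free RNA.

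Plvap in the Bdnf pair stood at 454 and 253 CPM with -0.84 (-0.94 to -0.74) in aerocytes and -0.32 in the core set, and -0.53 in gCap cells. Aplnr had -0.94 (-1.17 to -0.71). Fabp5, a fatty acid binding protein, stood at 76.5 and 161 CPM with 1.07 (0.89 to 1.26), and at 0.95, short of 2-fold, in the core set. Itga1, an integrin chain that binds collagen, stood at 659, 358, 623 and 331 CPM, short of 2-fold in both pairs at -0.88 and -0.91, and Col4a1, a collagen of the basement membrane, had -0.61 and -0.42.

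Markers of other cells moved with the groups and are given for that reason. The 8 AT2 markers summed to 3708, 7671, 3916 and 3281 CPM in aerocytes, all 8 with a UMI in every library, highest in Bdnf iPCKO. There 5 of 8 were at least 2-fold higher than in the control, against 1.97% of all genes. The 7 airway markers summed to 1859, 3808, 1944 and 3603 CPM, higher in both mutants. The higher AT1 sum in both mutants, given above, was mostly Hopx, and 4 of the 7 AT1 markers with enough UMIs had a ratio above 0 in the Bdnf pair and 5 of 8 in the Hgf pair. The 9 mural markers summed to 38.2, 51.6, 61.8 and 123 CPM and the 8 fibroblast markers to 284, 268, 142 and 189 CPM. The 9 leukocyte markers summed to 644, 1091, 978 and 478 CPM, with 4 to 8 of the 9 having a UMI, but nearly all of it was Lyz2, a gene that AT2 cells also express, at 643, 1089, 976 and 462 CPM. In free RNA the AT2 sums were 24598, 21525, 30270.3 and 12837 CPM, lower in both mutants. The airway sums there were 16194, 23516, 16605 and 35215.5 CPM, higher in both mutants as in aerocytes. The part of these cells' RNA in the differences between genotypes was not tested.

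Some of the largest ratios rested on 1 cell and describe that cell. In Bdnf iPCKO, 95.1% of Reg3g UMIs and 85.6% of Scgb3a1 UMIs, both secreted by airway epithelium, came from 1 barcode each. In Hgf iPCKO, the immunoglobulin gene Igkc had 1061 UMIs against 0 in Hgf lox/lox, at least 255-fold higher, but 95.8% of them were in 1 of 2124 aerocytes. The neutrophil granule genes Elane and Mpo were found in 3 and 5 cells. The globin genes Hbb-bs and Hba-a1 stood at 77.1, 3.70, 63.6 and 151 CPM and 153, 15.1, 190.5 and 302 CPM, and 96.6% and 82.0% of their UMIs in Bdnf lox/lox were in 1 cell each.

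Aerocytes of one library varied among themselves most in transcripts of other cells. After thinning, genes were ranked by the Fano factor, the variance of UMIs per cell over their mean. Sftpc had Fano factors between 15.8 and 45.9, and Scgb1a1, the club cell secretory protein, had up to 43.3. Lyz2, a lysozyme of macrophages and AT2 cells, had 12.8, 13.0, 12.4 and 6.79. Among the 30 highest genes of all 4 libraries, Igfbp7 had 4.71, 4.53, 2.32 and 3.12, and Ptprb had 4.82, 4.83, 2.33 and 2.44. The first was higher in aerocytes than in gCap cells and the second lower. Malat1, a nuclear RNA, had 9.13, 6.43, 3.60 and 3.57. The Bdnf cells were thinned to 1500 UMIs and the Hgf cells to 700, so Fano factors are compared within a pair only.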

How the data were processed

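Single cells of P21 mouse lung were captured on the BD Rhapsody platform (whole transcriptome). The deposited values are estimated counts of UMIs per gene and barcode, which the authors made with STARsolo (STAR 2.7.10a, per the labels) on GRCm39, sharing reads that fit several genes between them by expectation maximisation. The tables had no cell filter and hold 56884 genes. Coordinates are those of Gencode vM39 (GRCm39).

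Barcodes with at least 1500 UMIs (Bdnf and cortex libraries) or 700 UMIs (Hgf libraries) and at most 25% mitochondrial UMIs were taken as cells. A gene was detected where its estimated count rounded to at least 1. Sums of UMIs per library and cell group were scaled to CPM and rounded for the exact Poisson intervals. Log2 ratios carried an offset of 0.5 UMI and a 95% conditional binomial interval. A gene was called at 2-fold or more among genes with at least 50 UMIs, and against gCap cells it had to pass in all 4 libraries. The members, the 36 gene lists and the rules were chosen with earlier results of these data known. The genes named were those of the rule, members of the lists, the 12 largest ratios each way against gCap cells and the 10 largest each way in each pair and in both pairs, those past 2-fold in opposite directions, and the most variable by Fano factor, without predicted, mitochondrial and duplicated symbols. Alternatives covered the cell filters, the markers, doublets (Scrublet in scanpy 1.11.5, expected rate 0.1), thinning, scaling, free RNA and the minimum of UMIs; the rules without single markers, the core set and free RNA from barcodes of 200 to 500 UMIs were added after seeing the data. To subtract free RNA, its share of a group's UMIs was set as if all Sftpc UMIs of that group were free. Values below 0 were then set to 0. Calculations used numpy 2.4.6, scipy 1.17.1 and pandas 2.3.3, and the steps were tested on simulated data. The 2 cortex libraries enter only the total of cells in the series and the count of cells that pass the rule.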

Additional observations from a re-analysis of the deposited data

Results flagged for a closer look

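Several genes were at least 2-fold apart in opposite directions in both pairs; the difference between the pairs was not tested, since each rests on 1 library per genotype. The log2 ratio of mutant over control aerocytes was -1.38 in the Bdnf pair and 2.67 in the Hgf pair for Plac8, -1.02 and 1.74 for Tbx5, -2.18 and 1.51 for Serpina3g, and -1.29 and 1.47 for Ccbe1. Serpina3g was detected in few cells, 41, 12, 8 and 32 aerocytes by library. For Plac8, 58.6% of the Hgf iPCKO UMIs came from 1 of 19 cells. Thinning turned its Hgf ratio to -0.95, with no minimum of UMIs set for thinned ratios. Its Bdnf ratio in the core set was -0.88, short of 2-fold. For Tbx5 the Bdnf ratio in the core set was -0.90, also short of 2-fold. Subtracting free RNA of barcodes of 200 to 500 UMIs turned the Bdnf ratios of Tbx5 and Ccbe1 to 0.18 each, and subtracting that of barcodes of 10 to 100 UMIs turned the Hgf ratio of Ccbe1 to -3.16. Igf2, the fetal growth factor, went the other way, with 3.67 and -1.69, but 42.4% of its Bdnf iPCKO UMIs came from 1 of 21 cells, and in the core set its Bdnf ratio was 0.85, short of 2-fold. The globin genes Hbb-bt and Hbb-bs had -4.95 and -4.35 in the Bdnf pair and 1.18 and 1.24 in the Hgf pair, and 91.0% and 96.6% of their UMIs in Bdnf lox/lox aerocytes came from 1 cell. Thinning turned Hbb-bs to 1.10 in the Bdnf pair and -1.07 in the Hgf pair, and Hbb-bt to -0.95 in the Hgf pair. These thinned ratios held no minimum of UMIs either.

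The same rule was also met by brain endothelial cells. In the 2 cortex libraries of the series, Nodal lox/lox and Nodal iPCKO at P12, 376 of 817 endothelial cells (46.0%) and 717 of 1471 (48.7%) passed it.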

How the results depend on the processing

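The share of aerocytes among endothelial barcodes (aerocyte share of endothelial barcodes, Bdnf iPCKO minus Bdnf lox/lox, percentage points, and Hgf iPCKO minus Hgf lox/lox) kept its direction under every alternative run. In the Bdnf pair it moved to 2.81 without Ednrb and 2.72 in the core set. In the Hgf pair it moved to 1.28 with at least 3 of 5 markers, 1.64 with fewer than 2 gCap markers, 2.08 with thinned cells, 1.33 without Car4, 0.56 without Ednrb and 3.09 in the core set.

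Counts of genes past 2-fold moved with the minimum of UMIs, thinning, free RNA and the markers. For aerocytes against general capillary cells, genes higher went from 175 to 270 with no minimum, and genes lower from 131 to 232 with at least 3 markers, 352 with fewer than 2 gCap markers, 236 and 219 after subtracting free RNA (barcodes of 10 to 100 and of 200 to 500 UMIs), 243 with no minimum and 245 in the core set. In the Bdnf pair, 222 genes higher became 146 with at least 3 markers, 97 with thinned cells, 89 and 85 after subtracting free RNA, 504 with at least 20 UMIs and 4669 with no minimum, and 97 genes lower became 62 thinned, 1002 and 1811 after subtraction, 255 with 20 UMIs and 3518 with no minimum. In the Hgf pair, 614 genes higher became 221 thinned, 1109 with 20 UMIs and 5449 with no minimum, and 533 genes lower became 246 thinned, 1171 and 946 after subtraction and 4044 with no minimum. In both pairs the 60 genes higher became 19 thinned, 31 and 28 after subtraction, 142 with 20 UMIs and 1223 with no minimum, and the 41 genes lower became 22 thinned, 388 and 248 after subtraction, 70 with 20 UMIs and 714 with no minimum. The cause was not tested.

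Of the list medians against gCap cells, further aerocyte genes (2.03) moved to 2.19 with at least 3 markers, 2.40 with fewer than 2 gCap markers, 2.12 thinned, 2.13 with median-of-ratios scaling, 2.24 and 2.32 after subtraction, 2.20 with 20 UMIs and with no minimum, and 2.22 in the core set. Further gCap genes (-1.39) moved to -1.78, -2.80, -2.38, -1.78 and -2.03 in the same settings except the scaling and the minimum, -1.65 without Car4, -1.52 without Ednrb or without Apln and -1.90 in the core set. Between genotypes, further aerocyte genes in the Bdnf pair (-0.26) moved to -0.36 with fewer than 2 gCap markers and -0.33 in the core set, and reversed to 0.0107 and 0.10 after subtraction; in the Hgf pair (-0.77) they moved to -0.51 thinned and -0.67 and -0.63 after subtraction. Interferon genes in the Bdnf pair (-0.82) moved to -0.45 with fewer than 2 gCap markers and -0.50 after the second subtraction. Immediate-early genes in the Bdnf pair (0.57) moved to 0.67 with fewer than 2 gCap markers, 0.75 thinned, 0.46 and 0.42 after subtraction and 0.69 in the core set, and in the Hgf pair (0.05) to 0.24 with fewer than 2 gCap markers and -0.089 after the first subtraction. The glucocorticoid list in the Bdnf pair (0.53) moved to 0.37 thinned and 0.30 and 0.38 after subtraction, and in the Hgf pair (1.14) to 1.46 with 20 UMIs and with no minimum. The clock list in the Bdnf pair (0.93) moved to 0.49 thinned and 0.50 after the first subtraction. After the second it reversed to -7.12, and both set values below 0 to 0. The cause was not tested.

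Single genes reversed as follows, with no minimum of UMIs set after thinning or subtraction. In the Bdnf pair AU040972 went to -1.48 thinned, Btnl9 to -0.28 thinned, Nr1d2 to -4.65, Tbx5 to 0.18 and Ccbe1 to 0.18 after the second subtraction, and Hbb-bs to 0.44 without Scrublet doublets and 1.10 thinned. The value shared by Tbx5 and Ccbe1 is what the 0.5 UMI offset gives where subtraction left no UMI in either library. Nalf1 went to -0.73 with at least 3 markers, -1.03 without Scrublet doublets, -0.54 without Car4, -1.06 without Ednrb and -1.05 in the core set. In the Hgf pair thinning took Igkc to -0.18, Prtn3 and Mpo to -0.46, Plac8 and Hbb-bt to -0.95, Hbb-bs to -1.07 and Cxcl17 to -2.05. The value shared by Prtn3 and Mpo is what the 0.5 UMI offset gives where neither thinned library holds a UMI, so no reversal is shown for them. Car1 went to -0.16 with fewer than 2 gCap markers, Hbb-bt to -0.043 in the core set, Ccbe1 to -3.16 after the first subtraction, and Cxcl17 to -5.13 and Pigr to -3.12 after the second. Of 106 named genes past 2-fold, 86 (thinned) to 106 stayed past it.

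No paired analysis was possible because each genotype has 1 library, so no replicate numbers are shared. For the same reason no library was left out. Depth was lower in both mutants than in their controls, free RNA was subtracted from sums only, and genes under 50 UMIs per pair were not compared.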
